A study of Mus musculus with 35 samples.

Results

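The 9 genes Six2, Cited1, Eya1, Meox1, Osr1, Gdnf, Sall1, Itga8 and Pax2, which are used as markers of nephron progenitors, were followed in the kidneys of newborn mice, to ask how much of the progenitor program is left at postnatal day 2, how far animals of a group differ in it, and whether it differs between each cross and its controls. They were found by symbol in the count table that carries symbols and were joined by Ensembl identifier to all 35 libraries. All 9 were present, with 1 row each, among 31053 genes. All mice were on the C57BL/6 background, both sexes were used, and Cre was driven by the Cdh16 (Ksp) promoter, which is active in collecting duct, distal tubule and thick ascending limb and not in the progenitors themselves. Flcn KO kidneys (Flcn flox/flox; Ksp-cre+; 5 libraries) were compared with 5 controls, which in the study are Flcn flox/flox. Flcn/Tfeb DKO kidneys (4 libraries), which carry Ksp-cre+ with both Flcn flox/flox and Tfeb flox/flox, were compared with 3 controls, and these 17 libraries form set A. Flcn/Tfe3 DKO kidneys (Flcn flox/flox; Ksp-cre+; Tfe3-/-, in which Tfe3 is absent from every cell) came in 2 separate tables, set B with 6 DKO and 3 control libraries and set C with 4 DKO and 5 control libraries. The labels name the controls of both DKO crosses only by the cross, so their alleles are not given here. Each library is labelled as a biological replicate, and p values measure the spread between these libraries.

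Nephrons arise from the cap mesenchyme, a layer of self-renewing progenitor cells around each ureteric bud tip at the edge of the kidney. Six2 keeps the cells in the progenitor state, and Cited1 marks the least committed of them. The progenitors secrete Gdnf, which acts on the receptor pair Ret and Gfra1 of the bud tip and makes it branch. The bud also secretes Wnt9b, which drives part of the cap through a pretubular aggregate into a new nephron. In the mouse this pool runs out within the first days after birth, so that kidneys at this age hold its last cells. Because whole kidneys were measured, fewer progenitor cells and less RNA per progenitor cell cannot be told apart.

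On the genome build mm10 with GENCODE M21, Six2 lies at chr17:85684277-85688274 on the minus strand, Cited1 at chrX:102247381-102252181 (minus), Eya1 at chr1:14168954-14310235 (minus), Meox1 at chr11:101877510-101894374 (minus), Osr1 at chr12:9570116-9581500 (plus), Gdnf at chr15:7810846-7837575 (plus), Sall1 at chr8:89027235-89044162 (minus), Itga8 at chr2:12106632-12301922 (minus) and Pax2 at chr19:44756045-44837871 (plus). All are protein-coding. Meox1 shares its chromosome with Flcn, and Cited1 shares the X chromosome with Tfe3. Six2, Cited1, Gdnf and Sall1 overlap no other annotated gene. The other 5 overlap 9 small or non-coding genes, such as Gm20395 and 1700039E22Rik on the strand opposite to Pax2, and reads of such a pair cannot be told apart where counting ignored strand.

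The stretch of 250 bases before 1 RefSeq start site is shown for each of Six2, Cited1 and Gdnf. These are the progenitor factor, the marker of the least committed cells and the signal to the bud. Cited1 has 3 such windows and Gdnf 2, of which 1 each is shown. For Gdnf that start lies upstream of the GENCODE coordinates given above. The sequences are from RefSeq on GRCm38.p6 (the patch release of mm10), run 5′ to 3′ on the gene's own strand, and belong to chr17:85688255-85688504, chrX:102252182-102252431 and chr15:7809798-7810047. Capitals mark matches, on either strand, to TATAAA (the TATA box), CCAAT or GGGCGG (a GC box).
Six2: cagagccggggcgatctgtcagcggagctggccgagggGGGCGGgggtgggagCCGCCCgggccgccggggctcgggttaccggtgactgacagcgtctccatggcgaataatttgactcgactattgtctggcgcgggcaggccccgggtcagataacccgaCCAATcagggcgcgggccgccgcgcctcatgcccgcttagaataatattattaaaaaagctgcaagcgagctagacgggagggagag
Cited1: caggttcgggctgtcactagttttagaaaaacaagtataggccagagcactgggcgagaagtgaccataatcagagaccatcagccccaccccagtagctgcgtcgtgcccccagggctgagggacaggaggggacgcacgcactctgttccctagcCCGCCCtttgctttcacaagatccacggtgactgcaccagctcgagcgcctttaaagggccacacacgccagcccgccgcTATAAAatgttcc
Gdnf: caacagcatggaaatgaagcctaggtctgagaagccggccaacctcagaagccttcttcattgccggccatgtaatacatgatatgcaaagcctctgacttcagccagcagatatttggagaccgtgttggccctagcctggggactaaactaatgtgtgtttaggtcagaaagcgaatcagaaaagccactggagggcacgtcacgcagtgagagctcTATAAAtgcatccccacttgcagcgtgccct
In Six2 a CCAAT match begins 87 bases before the start beside 2 GC boxes, in Cited1 a TATAAA match begins 13 bases before it, and in Gdnf one begins 31 bases before it. For 6 of the 9 genes (these 3, Sall1, Itga8 and Pax2) there were 13 such windows, one for each annotated start. The letters CACGTG, the E-box form that MiT/TFE factors such as Tfeb and Tfe3 can bind, were in 0 of the 13 windows and in 6.02% of all 32851 windows of this length. TATAAA was in 3 of the 13 against 12.4% of all, CCAAT in 4 against 33.8%, and GGGCGG in 6 against 32.7%. A match is a string of letters and not a shown binding site, and no match says nothing of the factor beyond this window.

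The libraries held 1652649 to 4239356 counts in genes (median 2992169), so that 3 counts, the most that a count of 0 would allow, stood for 0.708 to 1.82 CPM (counts scaled to the same library total). Such limits cover counting error only, while the intervals given with the fold changes below also take in the spread between libraries. Beside the cross, libraries differed in 2 technical measures. The share of reads counted to no gene was 43.8 to 68.3% in the 26 libraries of sets A and C, whose files tally it. Alignments to several places made up the largest part of this tally in each of them, beside reads in no annotated gene and ambiguous reads. In the Flcn cross the uncounted share was 48.1 and 47.2% in control replicates 4 and 5. It was 58.6 to 60.2% in the other controls and 54.3 to 62.6% in Flcn KO. In set C it was 43.8 to 44.8% in the 4 DKO libraries and 52.6 to 61.4% in 4 of the 5 controls, with control replicate 6 alone at 44.2%. Mitochondrial transcripts took 4.47 to 11.9% of counts in set A, 2.72 to 7.80% in set C and 1.79 to 3.56% in set B. In Flcn control replicates 4 and 5 they took 4.88 and 4.93%, against 9.98 to 11.1% in the other controls and 7.33 to 11.1% in Flcn KO. The targeted genes did not check the labels in these 3′-end counts. Flcn ranged over 11.9 to 16.4 CPM in its controls and 10.3 to 18.8 CPM in Flcn KO, Tfeb over 7.005 to 19.5 against 6.48 to 7.94 CPM in the Flcn/Tfeb cross, and Tfe3 over 15.3 to 24.8 against 12.4 to 24.6 CPM in set B. A 3′ tag outside a deleted part checks nothing. Cdh16, the gene whose promoter drives Cre, was at 195.5 to 365.3 CPM in the 35 libraries.

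All 9 genes were still expressed at postnatal day 2, each with at least 1 count in every library. Pax2, a transcription factor of progenitors that is also kept in later epithelium and collecting duct, was the highest, with a median of 117 CPM over the 35 libraries and a range of 44.7 to 184 CPM, above 95.2% of the 31053 genes in mean level. Sall1, a zinc finger factor that keeps progenitors from differentiating, had a median of 40.01 CPM (23.2 to 64.5), and Itga8, the integrin that the cap mesenchyme uses to hold the bud's nephronectin, 39.3 CPM (22.8 to 75.2). Eya1, the phosphatase and co-activator that works with Six2, had a median of 15.2 CPM (2.94 to 26.4). The other 5 sat close together in median level: Osr1, a factor of the early kidney mesenchyme, at 11.1 CPM (5.52 to 26.7), Gdnf at 10.6 CPM (3.76 to 25.7), Cited1 at 10.4 CPM (0.964 to 45.3), Six2 at 9.90 CPM (0.482 to 44.2) and Meox1, a homeobox factor of the cap, at 9.90 CPM (3.96 to 20.2). The ranges of these 5 overlap, so their order is not firm. CPM of 3′-end libraries count transcripts and are not divided by length, and levels of different genes are compared here on that scale.

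**Figure D1:**
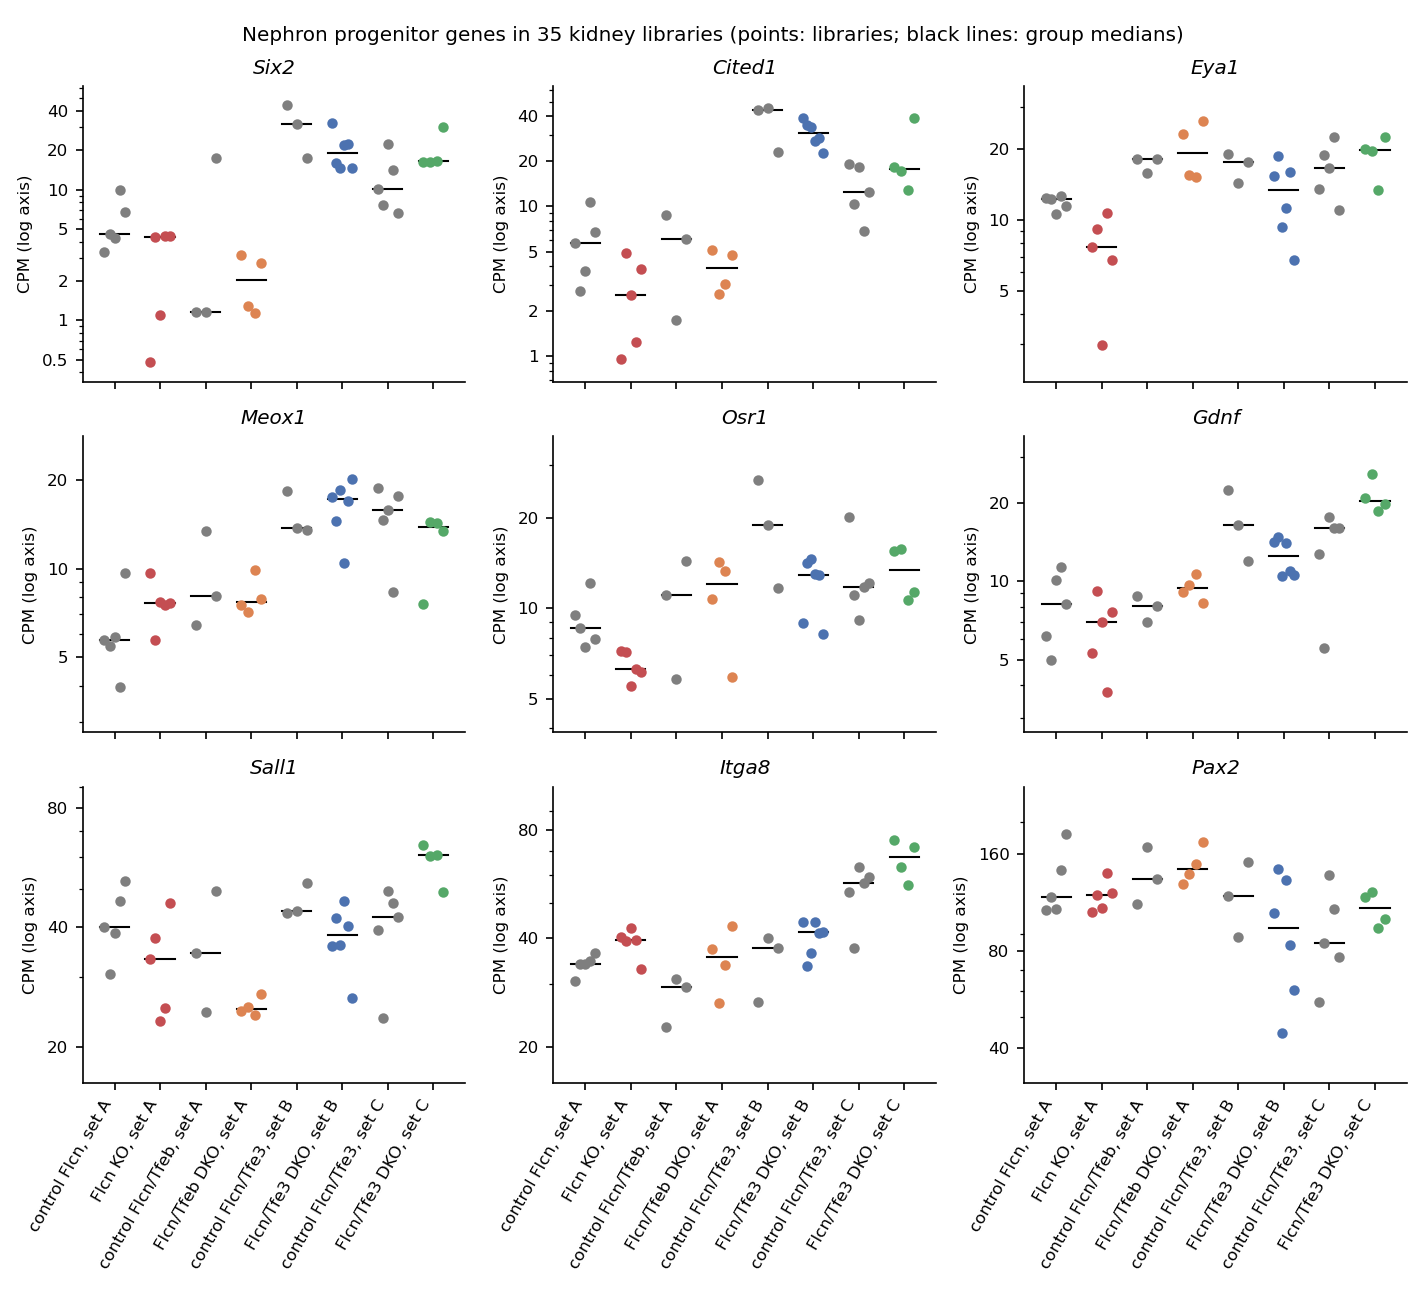
Level of each of the 9 genes in every library (CPM, log axis), by cross, set and group, with 1 point per library and a black line at each group's median. Six2 and Cited1 run from about 1 CPM in some set A libraries to over 40 CPM in set B controls. Over the 35 libraries together Pax2, Sall1 and Itga8 keep to a narrower band, though not within every group.

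Six2 varied widely within groups and between sets. In Flcn controls it was at 3.33, 4.55, 4.25, 9.90 and 6.75 CPM, and in Flcn KO at 0.482, 4.30, 1.10, 4.39 and 4.40 CPM, where the lowest value is a single read and the third is 3 reads. Controls of the Flcn/Tfeb cross were at 1.17, 1.17 and 17.5 CPM, the first 2 being 2 reads each and replicate 3 being 61 reads. Replicate 3 also stood apart in its uncounted share, 50.6% against 67.5 and 67.6%, and in its mitochondrial share, 4.47% against 9.16 and 10.7%. The part of these shares in the Six2 values of this cross was not tested. Flcn/Tfeb DKO was at 3.18, 1.30, 1.14 and 2.75 CPM. Set B stood higher, with controls at 44.2, 31.5 and 17.3 CPM and DKO from 14.5 to 32.3 CPM (median 18.9). In set C the controls were at 10.1, 7.65, 22.2, 14.1 and 6.66 CPM and the DKO libraries at 16.3, 16.3, 16.4 and 30.1 CPM. The sets were made as separate tables, so a difference in level between sets cannot be told apart from the way each set was made.

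Cited1 followed the same order of sets. It was at 5.72, 2.73, 3.72, 10.6 and 6.75 CPM in Flcn controls, and at 0.964, 4.88, 2.58, 1.25 and 3.81 CPM in Flcn KO. The Flcn/Tfeb controls were at 8.76, 1.75 and 6.04 CPM and the DKO at 5.16, 2.59, 3.04 and 4.72 CPM. In set B the controls were at 44.2, 45.3 and 23.2 CPM, and the DKO ran from 22.7 to 38.8 CPM (median 31.1). In set C the controls were at 19.3, 10.4, 18.3, 6.84 and 12.5 CPM and the DKO at 18.3, 17.1, 12.8 and 38.8 CPM. Groups overlapped in each of these comparisons, and DKO replicate 10 was the highest set C library for both Six2 and Cited1.

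Between animals of 1 group, the CV of Six2 lay well above its counting error in 7 of the 8 groups by set. In Flcn/Tfeb DKO it was close to it, at 49.0% where counting alone gives 44.7%. The CV of Six2 was 45.8% in Flcn controls, where counting alone gives 23.8%, and 67.1% in Flcn KO against 34.9%. It was 143% in Flcn/Tfeb controls against 21.5%, which rests on replicate 3 at 17.5 CPM. In sets B and C it was 33.8 to 52.1% against 8.89 to 18.2%. The biological coefficient of variation of edgeR, the spread between libraries of a group left after counting error, was 0.45 for Six2, against 0.25 for genes of its level and higher than in 92.7% of 13728 genes. Cited1 followed at 0.32 (trend 0.24, 83.2% of genes lower). Pax2 was at 0.24 against a trend of 0.17. Osr1 (0.24), Eya1 (0.22), Meox1 (0.21), Gdnf (0.19) and Sall1 (0.18) lay at or below the trend of their level, and Itga8 at 0.13 was among the steadiest, with 7.95% of genes lower. These figures are a description, and no test of the ranking was made.

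Whether the genes rose and fell together from animal to animal was examined on log2 CPM less the mean of each group and set, over all 35 libraries, with permutation within groups and sets. Of the 8 relations with Six2, 0 passed an adjusted p under 0.05 by Pearson's r, though 6 did on library totals without TMM factors (those with Cited1, Eya1, Gdnf, Sall1, Itga8 and Pax2). Cited1 was at r = 0.48 (permutation p = 0.0427, adjusted p = 0.155) and rho = 0.53 (p = 0.0106, adjusted p = 0.0424), Sall1 at r = 0.46 (p = 0.0579) and Eya1 at r = 0.39 (p = 0.0162, adjusted p = 0.130). The rank correlation of Eya1 was rho = 0.45 (adjusted p = 0.0424). Gdnf was at r = 0.28, Pax2 at 0.26, Itga8 at 0.20, Osr1 at 0.16 and Meox1 at -0.20. Without the 2 libraries farthest from the median of Six2, Flcn KO replicate 1 and Flcn/Tfeb control replicate 3, Eya1 was at r = 0.59 (adjusted p = 0.0197) and Cited1 at r = 0.46 (adjusted p = 0.0494). Within sets the r of Cited1 was 0.48 in A, 0.70 in B and 0.44 in C. Over the 36 pairs of the 9 genes r ran from -0.41 (Osr1 and Itga8) to 0.58 (Gdnf and Sall1), with a median of 0.18 and 23 pairs above 0.

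The technical measures moved with some of these genes in the same centred values. Over 26 libraries the share of reads counted to no gene ran against Sall1 (r = -0.78, permutation p = 0.00035, adjusted p = 0.00315; rho = -0.79) and Six2 (r = -0.72, p = 0.00135, adjusted p = 0.00607; rho = -0.67). For Six2 it was -0.74 in set A and -0.73 in set C, and -0.47 without the 2 libraries farthest from the median share. Gdnf was at r = -0.57 (adjusted p = 0.0435). The mitochondrial share, over 35 libraries, ran against Sall1 (r = -0.62, adjusted p = 0.0194), with -0.80 in set A and -0.92 in set C but 0.51 in set B, and for Six2 it was at r = -0.46 (adjusted p = 0.141), with -0.66 in set A, 0.41 in set B and -0.44 in set C. There were 9 relations for each measure. The part of these measures in the results below was not tested beyond the fits that hold them as a covariate.

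Among 13727 other genes, the pattern most like that of Six2, by r of the same centred values over the 35 libraries, was that of Uncx, a homeobox factor also found in the cap mesenchyme (r = 0.86, with 0.86 in set A, 0.89 in B and 0.86 in C), which ranged over 13.5 to 322 CPM. The next were Tspan18 (0.83), Gorasp2, Rnf181, Akt1, Ube2z, Gfra1 and Trim27 (0.82 each), and Gar1 and Ctbp1 (0.81 each). Cited1 ranked at place 1439 in that order. For Cited1 the most like were Spock2, a matrix proteoglycan (0.73), Adh5 and Asb4 (0.71 each), Cmtm6 (0.70) and Gss (0.69), with Six2 at place 221 and Gdnf at place 337. These are descriptions of libraries that share depth and quality as well as tissue.

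**Figure D2:**
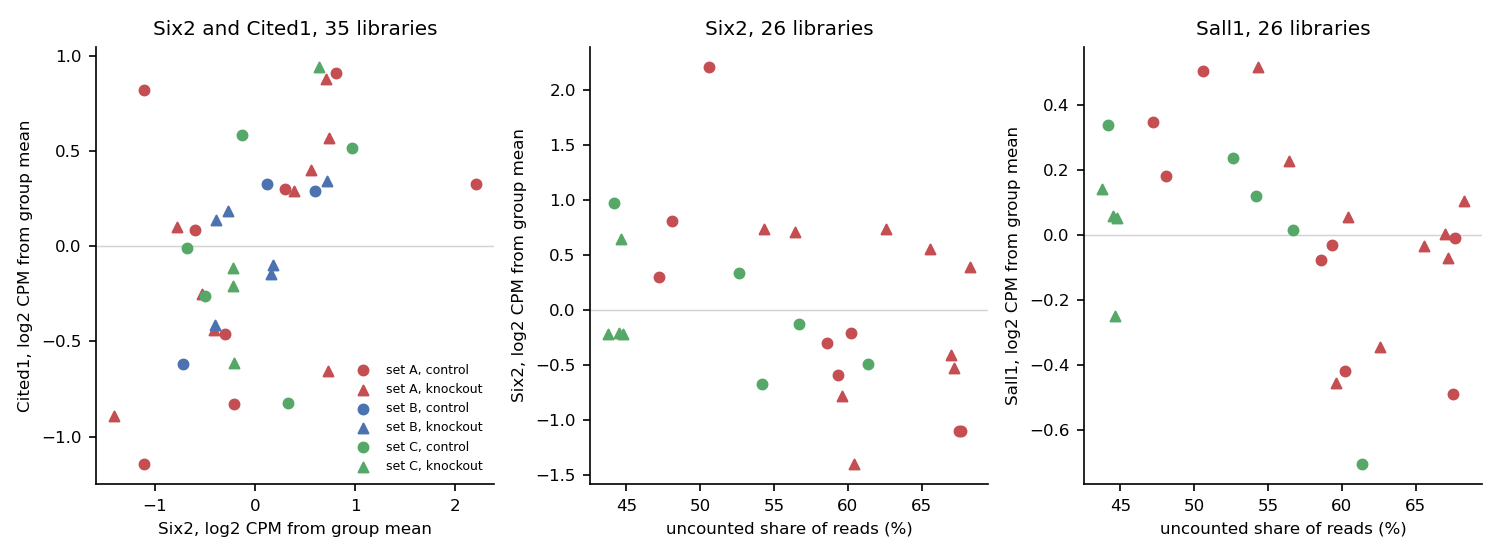
Cited1 against Six2 (35 libraries), and Six2 and Sall1 against the share of reads counted to no gene (26 libraries), each gene as log2 CPM less the mean of its group and set, with 1 point per library, colours for the sets, circles for controls and triangles for KO or DKO. Cited1 tends upwards with Six2 (r = 0.48), and Six2 (r = -0.72) and Sall1 (r = -0.78) tend downwards as the uncounted share rises.

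In Flcn KO, 7 of the 9 genes had lower mean levels than their controls, Six2, Cited1 and Eya1 by the most, and Meox1 and Itga8 were higher. None passed the test across all genes. By edgeR's quasi-likelihood test 62 of 11932 genes (0.52%) had an adjusted p under 0.05 and 0 of the 8 progenitor genes tested, and DESeq2 called 0 as well. At an unadjusted p under 0.05 there were 3 of the 8, all lower, beside 9.07% of all genes. The median log2 fold change was -0.30 over the 8, with 2 above 0, and -0.01 over all genes. Without each library in turn it ran from -0.41 (without control replicate 2) to -0.13 (without control replicate 4). Cited1 passed the filter in the first of these fits, and Six2, the lowest gene, failed it in the second. The median was -0.06 over the same 8 genes with the uncounted share as a covariate. In libraries of like uncounted share (above 52%), which leaves out control replicates 4 and 5, it was -0.036. Six2 failed the filter there again. The genes tested thus differed between some of these fits, and the part of that in the moves was not tested.

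Six2 had the lowest estimate of the 8 tested (log2 fold change -0.997, SE 0.43, 95% interval -1.91 to -0.09, p = 0.0335, adjusted p = 0.49, edgeR), and the groups overlapped (exact permutation p = 0.119). Eya1 was at 12.4, 12.3, 10.6, 12.6 and 11.4 CPM in controls and at 7.71, 9.18, 2.94, 10.7 and 6.75 CPM in Flcn KO. The controls had a CV of 6.96%, and 4 of the 5 KO libraries lay below all of them, with a log2 fold change of -0.70 (SE 0.27, p = 0.0177, adjusted p = 0.42, edgeR; exact permutation p = 0.0159). Osr1 was at 9.53, 8.64, 7.43, 12.1 and 7.93 CPM in controls and at 7.23, 7.17, 5.52, 6.27 and 6.16 CPM in Flcn KO. Its groups did not overlap, as for 0.699% of 13728 genes that were lower in this way, and its log2 fold change was -0.51 (SE 0.24, p = 0.0442, adjusted p = 0.54, edgeR; exact permutation p = 0.00794, the smallest the design can give).

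Cited1 was not in the fit, since too few of its libraries reached the count that the filter asks for. Without the filter its log2 fold change was -1.07 (adjusted p = 0.46, edgeR; exact permutation p = 0.0635). Itga8 went the other way, at 30.5, 34.1, 34.0, 34.6 and 36.4 CPM in controls and 40.5, 39.3, 42.7, 39.5 and 32.9 CPM in Flcn KO. There 4 of 5 libraries lay above all controls (log2 fold change 0.19). Its p was 0.142 by edgeR (adjusted p = 0.67) and 0.0397 by exact permutation. The rest were Sall1 at -0.32, Gdnf at -0.28, Pax2 at -0.16 and Meox1 at 0.29. With the uncounted share as a covariate Six2 was at -0.54, Eya1 at -0.72, Osr1 at -0.45, Sall1 at -0.10, Gdnf at -0.02 and Pax2 at 0.00, so that the estimates for Eya1 and Osr1 moved least among those below 0. Leaving out each library in turn gave -1.20 to -0.77 for Six2 in 7 fits (it failed the filter without control replicate 4 or 5, the 2 highest controls, or KO replicate 5), -0.83 to -0.49 for Eya1 (nearest 0 without KO replicate 3) and -0.57 to -0.37 for Osr1 (nearest 0 without control replicate 4).

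In the Flcn/Tfeb cross the 9 genes did not lean one way. Of 12469 genes 0 had an adjusted p under 0.05 (0%) by edgeR, and the progenitor genes had 0 of 8 by edgeR and 0 by DESeq2. At an unadjusted p under 0.05 there was 1 of the 8, beside 5.07% of all genes. The median of the 8 was 0.05, with 5 above 0, and that of all genes -0.02. Sall1 was at 34.4, 24.5 and 49.4 CPM in controls and at 24.6, 25.3, 24.0 and 27.1 CPM in DKO, so that the 4 DKO libraries lay together at the level of the lowest control (log2 fold change -0.55, p = 0.0477, adjusted p = 0.80, edgeR). Without control replicate 3 Sall1 was at -0.23, and with the mitochondrial share as a covariate it was at -0.02. Six2 was too low for the filter. Without it the log2 fold change was -1.76 (adjusted p = 0.79), a value that rests on control replicate 3 at 17.5 CPM. Cited1 was at -0.50, or -0.09 without control replicate 1, -0.88 without control replicate 2 and -0.04 with the mitochondrial share as a covariate. The others were Meox1 at -0.18, Osr1 at 0.02, Pax2 at 0.09, Eya1 at 0.20, Gdnf at 0.23 and Itga8 at 0.34.

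In the Flcn/Tfe3 cross, with both sets in 1 fit, the 9 genes centred on 0. Of 12456 genes 48 (0.385%) had an adjusted p under 0.05, and 0 of the 9 progenitor genes by edgeR or by DESeq2. At an unadjusted p under 0.05 there was 1 of the 9, beside 7.15% of all genes. The median of the 9 was -0.01 and that of all genes 0.01. The one was Itga8, at a log2 fold change of 0.26 (SE 0.11, p = 0.026, adjusted p = 0.57, edgeR). It was at 26.7, 40.2 and 37.6 CPM in set B controls and at 33.5 to 44.5 CPM in set B DKO (6 libraries), and at 53.8, 37.5, 63.1, 57.0 and 59.2 CPM in set C controls and 75.2, 62.9, 56.3 and 71.8 CPM in set C DKO. With the uncounted share as a covariate its value in set C was -0.03. Osr1 was at -0.31, Cited1 at 0.16, Sall1 at 0.14, Gdnf at 0.10, Six2 at -0.01, Pax2 at -0.04, and Meox1 and Eya1 at -0.08.

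The value near 0 came from estimates of opposite sign in the sets. In set B 7 of the 9 genes were below 0 (median -0.32) and in set C 8 of the 9 were above 0 (median 0.27). Of 13191 genes in set B 8 (0.0606%) had an adjusted p under 0.05, and of 12169 in set C 569 (4.68%), with 0 of the 9 in each. Unadjusted, 2 of the 9 in set B (6.56% of all genes) and 3 of the 9 in set C (21.3% of all genes) had a p under 0.05. In set B these were Six2 at -0.61 (p = 0.0449, adjusted p = 0.75, edgeR) and Osr1 at -0.68 (p = 0.0199, adjusted p = 0.75, edgeR). Their exact permutation p values were 0.155 and 0.0952. Osr1 was at 26.7, 18.9 and 11.7 CPM in set B controls and 8.92, 14.2, 14.6, 12.997, 12.95 and 8.21 CPM in DKO, where control replicates 1 and 2 lay above all DKO libraries and replicate 3 among them. Control replicate 1 was the highest library of set B for both genes, and without it Six2 was at -0.26 and Osr1 at -0.35. Without control replicate 3, the lowest of the controls for both, Six2 was at -0.90 and Osr1 at -0.93, with 0 of the 9 genes called in either fit.

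In set C the 3 were Six2, Gdnf and Sall1. Gdnf was at 12.7, 5.56, 17.6, 15.97 and 16.1 CPM in controls and at 20.8, 25.7, 18.6 and 19.9 CPM in DKO. Its groups did not overlap, as for 3.13% of 13728 genes that were higher in this way (log2 fold change 0.59, p = 0.0285, adjusted p = 0.18, edgeR; exact permutation p = 0.0317). In set B the same gene was at 22.4, 16.5 and 12.003 CPM in controls and at 14.2, 14.8, 10.5, 14.1, 10.9 and 10.6 CPM in DKO, with a log2 fold change of -0.44, or -0.18 without control replicate 1 and -0.63 without control replicate 3. Sall1 in set C was at 39.4, 23.6, 49.4, 46.0 and 42.3 CPM in controls and at 64.5, 60.5, 60.8 and 49.0 CPM in DKO, where 3 DKO libraries lay above all controls (log2 fold change 0.51, p = 0.00764, adjusted p = 0.091, edgeR; exact permutation p = 0.0238). Six2 was at 0.65 (p = 0.0494, adjusted p = 0.23, edgeR) and Cited1 at 0.66 (p = 0.0533, edgeR), with exact permutation p values of 0.0873 and 0.206.

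These set C values moved with single libraries and with the uncounted share. Without control replicate 6, the control with the low share, Six2 was at 0.99 (adjusted p = 0.0154) and Sall1 at 0.58 (adjusted p = 0.0147), both then called by edgeR along with 2404 genes in all. Without DKO replicate 10, Six2 was at 0.38 (adjusted p = 0.58) and Cited1 at 0.23 (adjusted p = 0.74), and 26 genes were called. With the uncounted share as a covariate Six2 was at -0.07, Gdnf at 0.06, Sall1 at 0.10 and Cited1 at 0.46. In set C the share and the genotype go together in all but that 1 control.

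**Figure D3:**
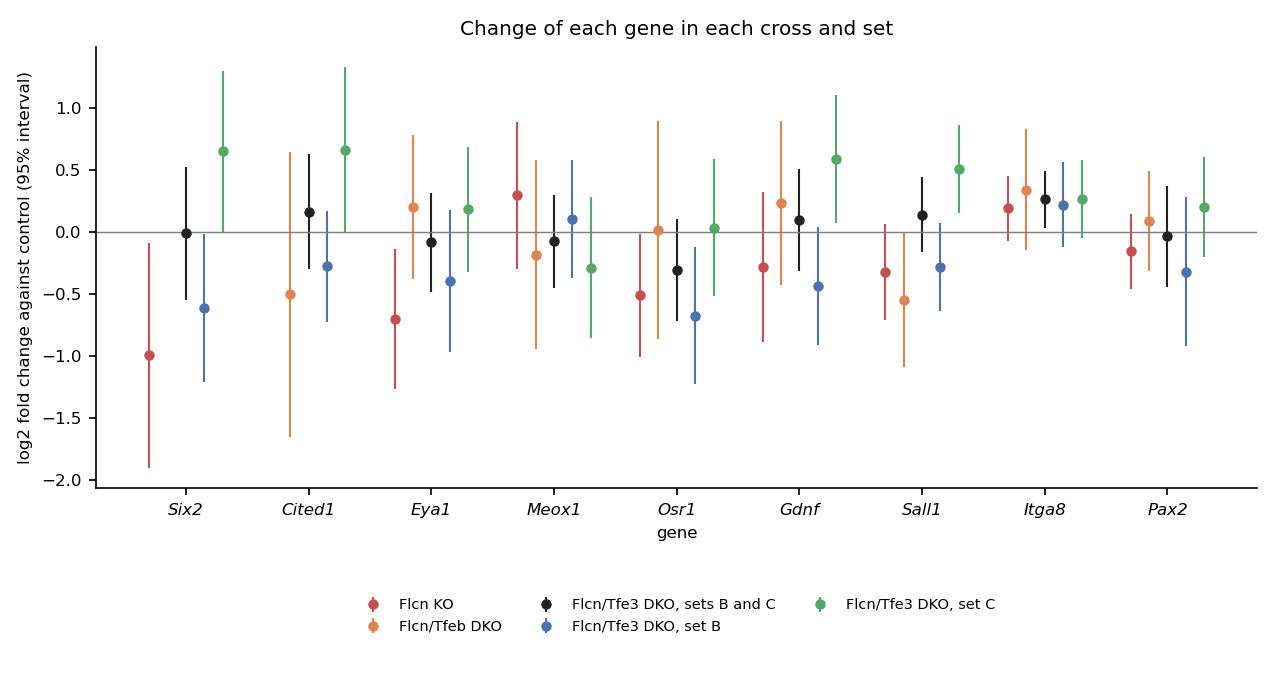
Log2 fold change of each of the 9 genes, DKO or KO against the controls of its cross, in Flcn KO, Flcn/Tfeb DKO and Flcn/Tfe3 DKO, the last also in sets B and C alone, with bars for the 95% interval of edgeR. Six2, Eya1 and Osr1 lie below 0 in the Flcn cross, and Six2, Gdnf and Sall1 lie below 0 in set B and above 0 in set C.

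The difference between the sets was tested itself, as set C less set B. Of 13370 genes 112 (0.838%) had an adjusted p under 0.05 by edgeR and 0 of the 9 progenitor genes, while 20.8% of all genes had an unadjusted p under 0.05. Sall1 differed by 0.83 on the log2 scale (p = 0.00261, adjusted p = 0.081), Gdnf by 1.06 (p = 0.00489, adjusted p = 0.096), Six2 by 1.29 (SE 0.45, p = 0.00874, adjusted p = 0.12) and Cited1 by 0.97 (p = 0.0264). Osr1, Eya1 and Pax2 differed by 0.75, 0.62 and 0.56, Itga8 by 0.09 and Meox1 by -0.35.

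Between crosses, 3 differences were tested by edgeR, and 0 of the genes that had passed the filter in both crosses (7, 8 and 8 of the 9) differed at an adjusted p under 0.05. For Flcn/Tfeb less Flcn 0.0153% of all genes did, and the lowest p among the 9 was that of Eya1 (0.90, p = 0.0271, adjusted p = 0.82). For Flcn/Tfe3 less Flcn 0% of genes did, and Six2 was at 1.01 (p = 0.0785, adjusted p = 0.67). For Flcn/Tfe3 less Flcn/Tfeb 0.022% did, and Sall1 was at 0.68 (p = 0.0300). Cited1 in the Flcn cross and Six2 in the Flcn/Tfeb cross had too few reads for the filter there and entered joint fits through the higher libraries of the other cross, so they are left out of these counts and no difference is given for them. The lower Six2 in Flcn KO was thus not shown to be particular to that cross.

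Genes of the same niche were described by lists of other cap mesenchyme genes (18), genes of the ureteric tip and the response to Gdnf (18) and genes of the committing nephron (20). In Flcn KO the committing nephron list had 1 of 19 tested genes above 0 (median -0.29), and 5 were lower at an unadjusted p under 0.05, with 0 called, beside 9.07% and 0.52% of all genes, which also stand beside the lists that follow. Lhx1, a factor of the renal vesicle, was at -0.47, Ccnd1, the cyclin of the early nephron, at -0.29 and Cdh6, a cadherin of the proximal precursor, at -0.33. The ureteric tip list had 3 of 16 above 0 (median -0.18), with 6 lower and 0 called. Among them were Ret at -0.85 and Gfra1 at -0.64, the receptor pair of Gdnf (Ret is named for this role, after its value was seen), and Fras1, a matrix protein of the bud, at -0.39. Npnt, the nephronectin that Itga8 holds, was at 0.00 and Gata3, a factor of the duct, at -0.03. The other cap mesenchyme list had 5 of 14 above 0 (median -0.14), with 2 lower and 0 called, and Uncx, a homeobox factor, was at -0.77 (p = 0.0177, adjusted p = 0.42, edgeR), Ncam1, an adhesion molecule, at -0.27 and Hoxd11 at 0.05.

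In Flcn/Tfeb DKO the ureteric tip list had a median of -0.37 (4 of 16 above 0), committing nephron -0.18 (2 of 19), other cap mesenchyme -0.01 (7 of 14) and proliferation -0.46 (2 of 12), with 0 called. In set B the medians were -0.19, -0.19, -0.08 and -0.06, and in set C 0.17, 0.20, 0.18 and 0.11, in the same order. Uncx was at -0.62 in set B and rose by 0.71 in set C (adjusted p = 0.0483, edgeR), as the one called gene of these 4 lists. Lhx1 was at -0.55 in set B and 0.57 in set C, and Top2a, an enzyme of dividing cells, at -0.12 and 0.47. The fetal growth and timing list had 0 of 10 genes above 0 in set B (median -0.33) and 8 of 10 in set C (median 0.31), where Igf2bp3 (0.80, adjusted p = 0.0154) and Plagl1 (0.57, adjusted p = 0.0468), both fetal growth genes, rose. These rises stand beside 0.896% of all genes called higher in set C and 4.68% called in either direction. The number called in either direction went from 569 to 4 genes with the uncounted share as a covariate. It ran from 26 to 2404 without each library in turn.

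**Figure D4:**
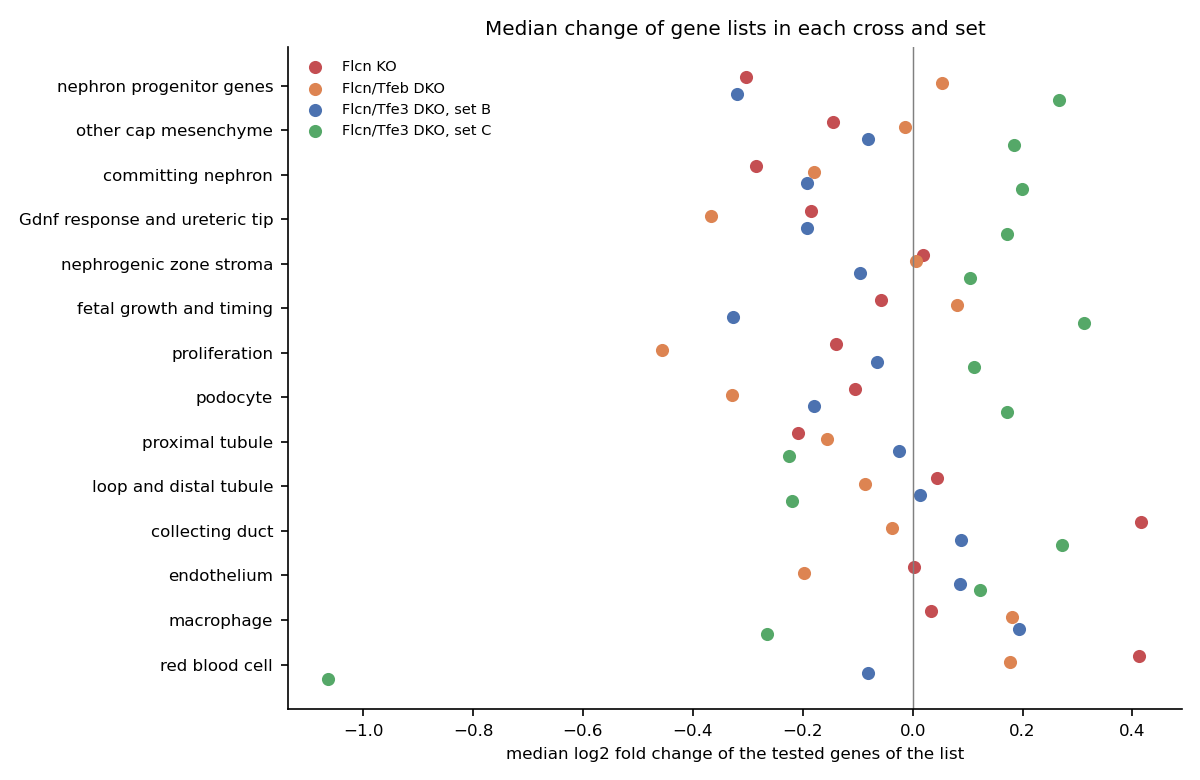
Median log2 fold change of the tested genes of each list and of the 9 progenitor genes, with 1 point per comparison (Flcn KO, Flcn/Tfeb DKO, and Flcn/Tfe3 DKO in sets B and C). The medians of the progenitor, ureteric tip and committing nephron genes lie below 0 in the Flcn cross and in set B and above 0 in set C.

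Markers of other cell types moved beside the progenitor genes in places. In Flcn KO the collecting duct list had a median of 0.42 (8 of 10 above 0), and Atp6v1g3, a proton pump subunit of intercalated cells (1.31, adjusted p = 0.000859), Scnn1b, a sodium channel subunit (0.58, adjusted p = 0.0491), and Umod of the thick ascending limb (1.001, adjusted p = 0.000396) rose by edgeR. The proximal tubule list was at -0.21, podocyte at -0.10, loop and distal tubule at 0.04, nephrogenic zone stroma at 0.02, endothelium at 0.00, macrophage at 0.03, proliferation at -0.14 and red blood cell at 0.41. In set C Aqp2, the water channel of the collecting duct (log2 fold change -0.61), Fbp1 of the proximal tubule (-0.60) and Tcf21, a stromal factor (-0.81), fell, as did 4 globin genes, among them Hbb-bs (-1.60) and Hbb-bt (-1.71), while Umod rose (0.75). The lists of the first 3 did not all lean that way, with medians in set C of 0.27 for collecting duct (7 of 10 above 0), -0.22 for proximal tubule (2 of 10), 0.10 for nephrogenic zone stroma (7 of 12) and -1.06 for red blood cell (1 of 6). The summed level of 7 red blood cell genes was 2083 to 7582 CPM in set C controls and 1410 to 1850 CPM in set C DKO, so that the groups did not overlap. The 8 adrenal genes summed to 0.287 to 330 CPM over the libraries, with set C control libraries from 1.31 to 232 CPM and DKO from 0.912 to 2.14 CPM. In set B the adrenal list had 0 of 8 genes above 0 (median -0.90), the macrophage list 8 of 8 (median 0.19) and collecting duct 6 of 10 (median 0.09), with Atp6v1g3 called (1.23, adjusted p = 0.0128), and the adrenal genes summed to 2.40 to 302 CPM in controls and 0.852 to 330 CPM in DKO. In Flcn/Tfeb DKO the medians were -0.33 for podocyte (2 of 8 above 0), -0.20 for endothelium (0 of 8) and -0.16 for proximal tubule (1 of 10). They were 0.18 for macrophage (6 of 7), 0.18 for red blood cell (6 of 6) and 0.47 for adrenal (4 of 6), with 0 called in these lists. The part of these other cell types in the values of the 9 genes was not tested.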

How the data were processed

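The authors made 3′-end libraries (QuantSeq) from kidney RNA, and used bbduk for trimming, STAR for alignment to mm10 and HTSeq-count for the counts per gene; the submitters' processing notes also list Trim Galore. The deposited values are raw counts, whole numbers per gene, and 1 deposited column of the percent of reads aligned to several places was not used. The authors' own normalization was not used here. Rows of reads counted to no gene were left out of library sizes and tests, and their share is given in the report. Totals of 1652649 to 4239356 counts per library put 3 counts at 0.708 to 1.82 CPM. Of the genes 99.6% are in GENCODE M21. Over 63 pairs of libraries of 1 group and set, chi-square divided by its degrees of freedom lay between 2.85 and 42.6 (median 7.81), and no pair was counted as 1 library.

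The fits used edgeR 4.0.16 under R 4.3.3 (filterByExpr, TMM, the two-sided quasi-likelihood F test, with set as a term for the Flcn/Tfe3 cross), with Benjamini-Hochberg adjustment over all genes tested and a threshold of 0.05. They were tested on simulated data. CPM are on TMM-scaled library sizes, and log2 CPM has a prior count of 2. A gene that failed the filter has no value in that fit. Exact permutation tests are two-sided, over the libraries of 1 comparison. Relations across libraries were tested with 100000 permutations within groups and sets, in Python 3.11.15. Differences between crosses and sets were interaction contrasts. Alternatives were DESeq2 1.42.0, no filter, other prior counts and thresholds, library totals, covariates (Xist, mitochondrial share, uncounted share), the replicate number as a block, each set alone and leaving out each library. The uncounted share, the libraries of like share, library totals, the set difference and leaving out libraries within a set were chosen after seeing the data.

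The 9 genes and all lists were chosen with earlier results of these data known. Beside the 9, the text names genes from the 3 most abundant of a list (all 3 for the niche lists in Flcn KO), called genes, the 10 genes most like Six2 and the 5 most like Cited1, and the targeted genes and Cdh16, with exceptions marked. Promoter sequences are RefSeq's on GRCm38.p6; Eya1, Meox1 and Osr1 had none in the table used.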

Additional observations from a re-analysis of the deposited data

Results flagged for a closer look

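In 54 groups of 4 to 6 libraries (9 genes in 6 groups), 3 held a library far from the others by Dixon's test, and chance alone gives about 1 in 20. All 3 were in set C. Six2 was at 30.1 CPM in Flcn/Tfe3 DKO replicate 10, where the other 3 DKO libraries were at 16.3 to 16.4 CPM. Meox1 was at 7.60 CPM in DKO replicate 7, below the others. Osr1 was at 20.1 CPM in control replicate 4, above the others.

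Some genes had every KO or DKO library on one side of the control mean of log2 CPM in one cross or set and on the opposite side in another. Cited1 in set C met this narrowly, since DKO replicate 9 at 12.8 CPM lay below the control mean in CPM, 13.5. This difference was not tested by that comparison. The interaction tests of the report called 0 of the genes counted there, but those between crosses held sets B and C together. The Flcn and Flcn/Tfeb crosses were not tested against set C alone. In differences of mean log2 CPM, Six2 was at -0.99 in Flcn KO and -0.59 in Flcn/Tfeb DKO against 0.75 in set C, Cited1 at -0.996 in Flcn KO against 0.63 in set C, and Sall1 at -0.45 in Flcn/Tfeb DKO against 0.58 in set C. Cited1 in the Flcn cross and Six2 in the Flcn/Tfeb cross failed the count filter, so these directions rest on few reads. Six2 at -0.59 rests on control replicate 3, since the other 2 controls were at 1.17 CPM and 3 of the 4 DKO libraries were above that. Gdnf was at 0.23 in Flcn/Tfeb DKO and 0.70 in set C against -0.39 in set B.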

How the results depend on the processing

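No progenitor gene was called in any cross under any of the alternatives for the 3 crosses, with lowest adjusted p values of 0.29 (Flcn, 22 fits), 0.40 (Flcn/Tfeb, 19 fits) and 0.091 (Flcn/Tfe3, 33 fits, each set alone included); the calls of Six2 and Sall1 without control replicate 6 came only from set C fitted alone. The depth limits Six2 and Cited1 in set A, where 1 to 3 reads stand behind single values. The same-numbered libraries correlated at r = -0.32 to 0.31, so the replicate numbers share only a name. With the replicate number as a block the genes called went from 62 to 48 (Flcn), from 0 to 0 (Flcn/Tfeb) and from 48 to 0 (Flcn/Tfe3), and Meox1 in the Flcn/Tfe3 cross was at 0.0198.

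Genes called in the Flcn cross numbered 118 with DESeq2, 95 with no filter, 100 at a threshold of 0.1, 147 with the mitochondrial share, 112 with the uncounted share and 37 to 58 without each library in turn; in the Flcn/Tfe3 cross 93 with DESeq2, 26 with Xist, 28 with the mitochondrial share, 29 without the set term, 25 in libraries of like uncounted share, 4 in set C with the uncounted share, 8 in set B and 569 in set C. The median of the progenitor genes moved to -0.036 in Flcn libraries of like uncounted share, a fit that lacks Six2, the lowest gene of the main fit. In the Flcn/Tfe3 cross it moved to -0.32 in set B, 0.27 in set C and -0.24 in libraries of like uncounted share. That last fit held all of set B, whose share was not measured, and the set C libraries under 50%. Of the set C controls only replicate 6 was in it. Relations with Six2 past an adjusted p of 0.05 numbered 6 on library totals and 2 without the farthest libraries. Library totals moved the median of all genes to -0.07, -0.14 and 0.09 in the 3 crosses.

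These estimates changed sign, none of them called, and the cause was not tested. Flcn cross: Pax2 at 0.0044 with the uncounted share and 0.094 at like shares. Flcn/Tfeb cross: Pax2 at -0.038 with the mitochondrial share, and Osr1 at -0.14 and Pax2 at -0.031 on library totals. Flcn/Tfe3 cross, Six2: 0.021 with DESeq2, 0.0062 with no filter, 0.11 with Xist, 0.054 on library totals, 0.01997 without the set term, 0.65 in set C and 0.13 in the exact test. Others of that cross: Gdnf at -0.068 and Sall1 at -0.0046 with the mitochondrial share, and Meox1 at 0.0021 and Pax2 at 0.039 on library totals. In set B Cited1 was at -0.28, Meox1 at 0.10, Gdnf at -0.44 and Sall1 at -0.28, and in set C Eya1 was at 0.18, Osr1 at 0.036 and Pax2 at 0.20. With the uncounted share in set C Eya1 was at 0.18, Osr1 at 0.42 and Itga8 at -0.028. In the like-share fit, which held all of set B as well, Cited1 was at -0.16, Gdnf at -0.25 and Sall1 at -0.14. Without each library in turn, Pax2 ran from -0.034 to 0.25, Meox1 from -0.37 to 0.14 and Osr1 from -0.24 to 0.35 with Tfeb removed beside Flcn. With Tfe3 removed beside Flcn Six2 ran from -0.18 to 0.24, Pax2 from -0.12 to 0.083, Gdnf from -0.0022 to 0.28, Meox1 from -0.14 to 0.015 and Cited1 from -0.059 to 0.30.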

Other observations

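The spread of Six2 between animals was set beside whole lists, as a description over 35 centred libraries that share depth and RNA quality. The median r with Six2 was 0.50 over 12 proliferation genes (12 above 0), 0.45 over 20 committing nephron genes (19 above 0) and 0.33 over 16 ureteric tip genes (13 above 0), against 0.05 over 16 other cap mesenchyme genes and 0.03 over all genes. It was 0.28 over 10 collecting duct genes (7 above 0), 0.27 over 10 fetal growth genes (8 above 0) and 0.23 over 8 endothelium genes (6 above 0), and between -0.13 and 0.10 over the other lists. Within the other cap mesenchyme list Fgf20, a growth factor of the progenitors named after its values were seen, was at 0 counts in 34 of the 35 libraries.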
